A study of Mus musculus with 4 samples.

Results

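The proteins of the U5 small nuclear ribonucleoprotein (snRNP) and of the U4/U6.U5 tri-snRNP were followed as 10 genes in the RNA of diplotene cells with and without TDRD6. These were Prpf8, Snrnp200, Eftud2, Prpf6, Snrnp40, Cd2bp2, Txnl4a, Ddx23, Prpf31 and Prpf3, chosen by name as proteins of these particles. Each of the 10 had a row among 37718 gene rows. They also held 188 of the 207562 introns and 567 of the 605144 exon segments and splice junctions. The cells came from testes of mice at 20 days post partum (dpp), of the genotypes Tdrd6+/- (2 libraries) and Tdrd6-/- (2 libraries). Both genotypes carried human CD4 under the endogenous Tdrd6 promoter, and germ cells with this surface protein were pulled out with magnetic beads. The preparation was made to enrich diplotene cells but was not pure, each library pooled at least 4 mice, and Tdrd6+/- cells, not wild-type cells, were the reference. Replicates were separate pools numbered only by the labels, so that p-values measure the spread between 2 libraries a genotype.

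The spliceosome removes introns with the help of snRNPs, and U5 joins it together with U4/U6 as the tri-snRNP. PRPF8 is the scaffold around the catalytic RNA, SNRNP200 is the helicase that unwinds U4 from U6, and EFTUD2 is the GTPase that sits beside both. Sm proteins form the ring around the RNA of U5 as of other snRNPs, and the study followed their methylation and their loading onto RNA in the absence of TDRD6. Whether the genes for the proteins that complete the U5 particle change in level or in splicing in the same cells is what the comparison of the genotypes addresses here.

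Gene counts summed to between 26454326 and 31388750 a library, and introns received 30.6 to 52.7 counts per 100 gene counts. Tdrd6+/- replicate 1 had the most intron counts relative to gene counts and Tdrd6-/- replicate 2 the fewest, so that these libraries stood apart from the others of their genotype. Tdrd6 itself had 33220 and 39322 counts in the Tdrd6+/- libraries and 359 and 400 in the Tdrd6-/- libraries, as the labels state. Late spermatocyte markers were high, with summed levels of 7890 to 9292 CPM (each count as a share of its library, after scaling). Of the 10 in that list, Sycp1 and the joined row of Spag6 rose and Piwil1 fell (3 called). Of 7 round spermatid markers 3 had enough counts to be tested, and of these Acrv1 and Spaca1 rose (2 called). The summed level of that list was 23.4 and 32.2 CPM in Tdrd6+/- and 40.8 and 38.7 CPM in Tdrd6-/- libraries, with Tnp1, Tnp2, Prm1 and Prm2 at 0 to 10 counts in every library. Of the lists for spermatogonia, Sertoli, Leydig, myoid, blood and endothelial cells, none of the genes tested passed the threshold (summed levels of 411 to 511 CPM for spermatogonia, 37.9 to 48.5 for Sertoli and at most 22.1 for each of the others), and 1 of 27 genes, Hbb-b1, was not matched. Most of the spermatogonia sum came from Dmrtb1 alone, at 392 and 493 CPM in Tdrd6+/- and 454 and 444 CPM in Tdrd6-/- libraries. The other genes of that list lay between 0.34 (Sohlh1) and 11.3 CPM (Uchl1). The part of the marker differences between genotypes in the results on the member genes was not tested.

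All 10 genes were expressed, over a wide range. Per kb of annotated exon, Snrnp200 was highest with 77.7 ± 4.0 CPM (SD, n = 4 libraries), followed by Prpf8 with 62.1 ± 12.4. Prpf6 had 23.4 ± 1.3 CPM per kb and Eftud2 23.1 ± 2.1. Cd2bp2, which binds the U5 particle before the tri-snRNP forms and leaves it on assembly, had 16.7 ± 0.42 CPM per kb. Ddx23, the helicase that lets U6 take the place of U1 at the 5′ splice site, had 14.7 ± 0.55. Snrnp40, a WD-repeat protein of U5, had 12.1 ± 4.0, Prpf31 had 8.99 ± 0.67 and Prpf3, which together with Prpf31 belongs to the U4/U6 side of the tri-snRNP, had 7.59 ± 1.39. Ranges over the 4 libraries did not overlap between Prpf8 and Prpf6, between Eftud2 and Cd2bp2, or between Cd2bp2 and Ddx23. All other neighbours in this order overlapped in range, though within each library Snrnp200 lay above Prpf8. The remaining pairs changed order between libraries and could not be ranked. Among 15644 genes with a length, the members ranked from 620 (Snrnp200) to 5187 (Prpf3). The row of Txnl4a, which encodes the small thioredoxin-like protein of U5, was joined with an overlapping gene of the same strand, so that its level per length was not computed and its counts may belong in part to that neighbour.

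Prpf8 fell in Tdrd6-/- cells. It was counted at 524 and 559 CPM in the Tdrd6+/- libraries and at 399.7 and 370.2 CPM in the Tdrd6-/- libraries, scaled by the trimmed mean of M-values (TMM). Both Tdrd6-/- libraries lay below both Tdrd6+/- libraries, and the means of 541 ± 24.6 and 385 ± 20.9 CPM (SD, n = 2) differed by more than the spread of either genotype. The level thus fell by 28.9%, a log2 fold change of -0.49 (SE 0.128, adjusted p = 0.0356, edgeR quasi-likelihood test over 16555 genes). In bulk RNA, fewer cells of a kind and less RNA per cell cannot be told apart. The call was lost without either of the Tdrd6-/- libraries (edgeR adjusted p = 0.127 without replicate 1 and 0.494 without replicate 2) and without the filter on low counts (0.25), while the log2 fold change stayed between -0.43 and -0.55 over all alternatives.

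Snrnp40 was the other member called, again lower in Tdrd6-/- cells. Its gene row spans segment E009, which was covered much like the introns beside it (described below). E009 had 319 and 174 counts beside gene counts of 1875 and 1219 in Tdrd6+/- libraries. In Tdrd6-/- libraries it had 127 and 106 beside 1155 and 1290. A level without this segment was not computed. With it, the level of Snrnp40 was 71.6 and 43.8 CPM in Tdrd6+/- replicates 1 and 2, and 36.5 and 40.3 CPM in Tdrd6-/- replicates 1 and 2. The genotypes did not overlap, but the distance between the Tdrd6+/- replicates was larger than that between Tdrd6+/- replicate 2 and the Tdrd6-/- libraries. The log2 fold change was -0.59 (SE 0.181, adjusted p = 0.0866, edgeR). Without Tdrd6+/- replicate 1, the library with the most intron counts relative to gene counts, the log2 fold change was -0.18 (adjusted p = 0.767, edgeR). The call was lost in 7 of 9 alternatives, among them DESeq2 (adjusted p = 0.103) and leaving out Tdrd6-/- replicate 1 (0.247) or 2 (0.167).

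These 2 members were called among 10 tested, both lower in Tdrd6-/- cells. With the replicate block Prpf3 was called as well. Over all genes tested, 4.80% were called in either direction and 3.78% were called lower in Tdrd6-/- cells, and the 2 of 10 members were not tested against these shares. Prpf3, the third of the members by size of change, was at 48.8 and 50.5 CPM in Tdrd6+/- and at 38.2 and 34.5 CPM in Tdrd6-/- libraries. The groups did not overlap, but with a log2 fold change of -0.45 (SE 0.149) it did not pass the threshold in edgeR (adjusted p = 0.12). It passed with DESeq2 (adjusted p = 0.0942).

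The 7 remaining members gave no call, and their log2 fold changes ran from -0.18 to 0.17. Snrnp200 was at 612, 649, 591 and 579 CPM in Tdrd6+/- replicates 1 and 2 and Tdrd6-/- replicates 1 and 2. In the same order, Eftud2 was at 193, 219, 178 and 185 CPM. In both genes the Tdrd6-/- libraries were the lower ones (-7.28% and -11.9% in the mean), with edgeR adjusted p-values of 0.793 and 0.596. Prpf31, the U4-binding protein of the tri-snRNP, was at 44.4 and 47.7 CPM in Tdrd6+/- and 51.0 and 52.5 CPM in Tdrd6-/- libraries, the only member with both Tdrd6-/- libraries above both Tdrd6+/- libraries, at an edgeR adjusted p of 0.688. The libraries of the genotypes overlapped for Prpf6 (85.5 to 97.2 CPM), which bridges U5 and U4/U6, for Ddx23 (88.6 to 96.1), for Cd2bp2 (64.2 to 67.7) and for the joined row of Txnl4a (26.4 to 37.0). In all, both Tdrd6-/- libraries lay below both Tdrd6+/- libraries in 5 of the 10 members and above them in 1. Among all genes tested these patterns held in 23.4% and 20.1%.

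**Figure D1:**
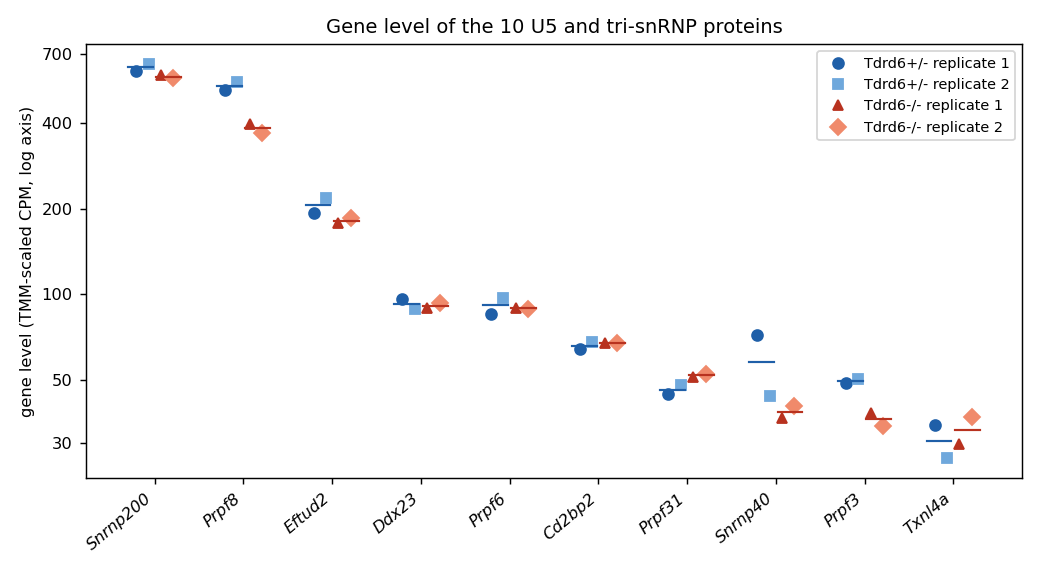
TMM-scaled CPM (log axis) of each member gene in the 4 libraries, with points for single libraries and short lines for the mean of each genotype. Prpf8 and Prpf3 show both Tdrd6-/- libraries below both Tdrd6+/- libraries, while the high Snrnp40 value of 71.6 CPM belongs to Tdrd6+/- replicate 1 alone.

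Summed over the 10 rows, the members reached 1775 and 1849 CPM in the Tdrd6+/- libraries and 1571 and 1548 CPM in the Tdrd6-/- libraries. The difference of -253 CPM between the means exceeded the SD of 52.7 (Tdrd6+/-) and 16.1 CPM (Tdrd6-/-). The exact two-sided permutation test gave p = 0.33, the smallest p that 2 libraries against 2 allow. Without TMM the difference was -155 CPM. Of the 10 members, Snrnp200 and Prpf8 had the highest levels. Most of the -253 CPM came from Prpf8 alone, with means of 541 CPM in Tdrd6+/- and 385 CPM in Tdrd6-/- libraries. Without Snrnp200, the member of highest level, the difference was -207 CPM, and a sum without Prpf8 was not taken. Negative log2 fold changes were found in 7 of the 10 members, against 48.3% of all genes tested. Their median over the 10 members was -0.07, against 0.01 over all genes tested.

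Along the Snrnp40 gene, summed junction counts of the genotypes overlapped between exons 1 and 5 and did not overlap between exons 5 and 10, which is described here without a test. Single features went against this order, since the junction of exons 5 and 6 and introns 10 and 11 overlapped, and the junction of exons 4 and 5 was higher in both Tdrd6-/- libraries. Snrnp40 lies at chr4:130360132-130390026 (mm10, plus strand), and its transcript Snrnp40-201 has 10 exons. A shorter annotated transcript, Snrnp40-202, runs into exons of its own after exon 4. Junctions were placed on these exons by their order, since the number deposited equals the number annotated. The sequences of 3 of them are shown because they frame the position at which the counts change, with the last 15 bases of the upstream exon in lower case and the first 15 bases of the downstream exon in capitals, 5′ to 3′ on the plus strand of mm10 (GENCODE M21 transcripts).
Snrnp40-201, exons 4 and 5: gatggtacagttaagCTTTGGGACATCCGG
Snrnp40-202, exon 4 and its own exon 5: gatggtacagttaagGTTAAAGGCAGATTG
Snrnp40-201, exons 5 and 6: gataatgacatcaagGTCTGGGACCTACGC
The first joins base 130368354 to base 130378046 and had 69 and 68 counts in Tdrd6+/- against 86 and 93 in Tdrd6-/- libraries. The second joins the same donor to base 130373342 and had 1 count in Tdrd6+/- replicate 2 and 0 in the other libraries, so that nearly all spliced counts from this donor led to the exon of Snrnp40-201. The last joins base 130378168 to base 130383394 and had 155 and 104 counts in Tdrd6+/- against 109 and 142 in Tdrd6-/- libraries.

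Over the 4 junctions between exons 1 and 5 of Snrnp40-201, summed junction counts scaled as the gene were 8.32 and 7.18 CPM in Tdrd6+/- and 7.84 and 9.09 CPM in Tdrd6-/- libraries, and the genotypes overlapped. Over the 5 junctions between exons 5 and 10 they were 30.5 and 20.7 CPM in Tdrd6+/- and 15.6 and 20.1 CPM in Tdrd6-/- libraries, with Tdrd6+/- replicate 2 and Tdrd6-/- replicate 2 close together. Junctions after exon 5 thus carried more counts than those before it in every library, 2.94 and 2.30 times as many per junction in Tdrd6+/- and 1.59 and 1.77 times in Tdrd6-/- libraries. The position of this split was chosen after the counts had been seen.

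Intron counts of Snrnp40 stepped up 1 exon earlier, after exon 4. Introns 1 to 3 together had 137 and 154 counts in Tdrd6+/- against 188 and 155 in Tdrd6-/- libraries. Introns 4 to 7 had 2479 and 1318 counts in Tdrd6+/- against 1061 and 907 in Tdrd6-/- libraries, which made up 83.2% of all intron counts of the gene. The density rose from 19.6, 24.7, 29.0 and 21.8 counts per kb in intron 3 to 185, 114, 86.0 and 74.6 counts per kb in intron 4 (Tdrd6+/- replicates 1 and 2, then Tdrd6-/- replicates 1 and 2, unscaled). Tdrd6+/- replicate 1 had the highest density in introns 4 to 7, and Tdrd6+/- replicate 2 lay between it and the Tdrd6-/- libraries.

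Among the exon segments and junctions of all members 1 of 440 tested was called, against 0.207% of all 155398 tested. The called exon segment, which did not pass at a false discovery rate of 0.05, lies in this stretch. It is segment E009 of Snrnp40 (chr4:130374448-130375576), the last exon of Snrnp40-202, and its use relative to the rest of the gene fell in Tdrd6-/- cells (log2 change -0.82, SE 0.208, adjusted p = 0.0536, DESeq2 likelihood ratio test). Its counts were 319 and 174 in Tdrd6+/- and 127 and 106 in Tdrd6-/- libraries. Per kb it had 283, 154, 112 and 93.9 counts, within the densities of introns 5 and 6 on either side of it in Tdrd6+/- replicate 2 and below them in the other 3 libraries. The junction that leads into it from the exon before had 1 and 3 counts in Tdrd6+/- against 2 and 0 in Tdrd6-/- libraries. Without Tdrd6+/- replicate 1 its log2 change was -0.66 and without Tdrd6-/- replicate 2 it was -0.59, and in neither was it called.

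**Figure D2:**
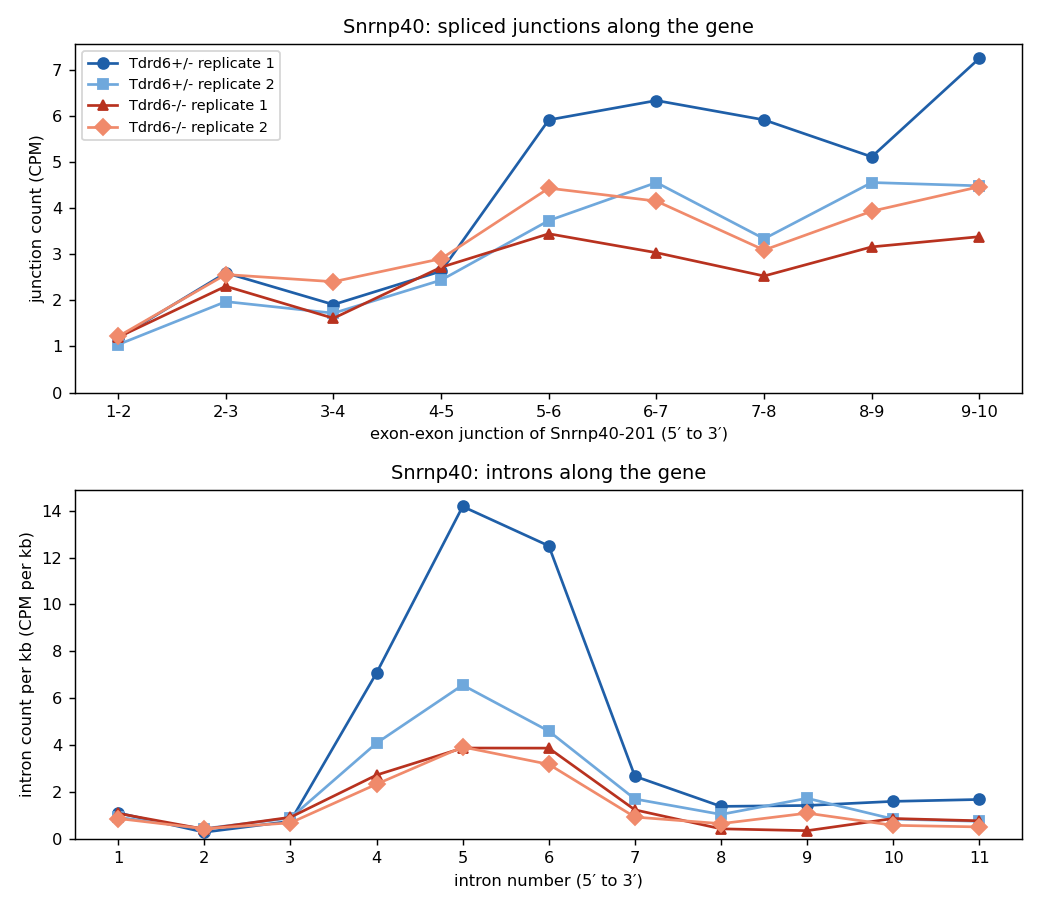
Counts along Snrnp40, 5′ to 3′, with a line per library. The upper panel gives CPM at each exon-exon junction of Snrnp40-201 and the lower panel gives CPM per kb in each intron. The libraries lie close together up to the junction of exons 4 and 5 and up to intron 3, and spread out from there, with Tdrd6+/- replicate 1 highest at every later junction and in introns 4 to 7.

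The balance of the 3′ against the 5′ side of each gene was then compared for all genes with at least 4 annotated junctions and 100 junction counts on each side. An equal number of junctions was taken from either end, by their numbering in the files and the strand of the gene. This comparison was added after the profile of Snrnp40 had been seen. Of 9 members tested (Txnl4a was left out as a joined row), 3 were called in edgeR, where 1.19% of 6888 genes were called. The call of Snrnp40 restates the split described above, from nearly the same junctions, and is no separate result, which leaves 2 calls among the other 8 members. Prpf3 rose, and Snrnp40 and Ddx23 fell, in 3′-side counts relative to 5′-side counts. The genotypes did not overlap in 6 of the 9, Snrnp40 included, where 39.4% of all genes tested did not. Both Tdrd6-/- ratios were lower in Prpf8, Eftud2, Snrnp40 and Ddx23, and higher in Prpf6 and Prpf3. Over all genes tested 25.9% were lower and 13.5% higher in this sense, and 60 of the 82 genes called were lower. A fragment can count on more than 1 junction, which ties neighbouring junctions together.

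For Prpf3, the 10 junctions at the 5′ end had 515 and 599 counts in Tdrd6+/- against 393 and 369 in Tdrd6-/- libraries. The 10 junctions at the 3′ end had 352 and 365 counts in Tdrd6+/- against 383 and 369 in Tdrd6-/- libraries. These counts are not scaled, and the Tdrd6-/- libraries were the larger ones. The 3′-to-5′ ratio was 0.683 and 0.609 in Tdrd6+/- and 0.975 and 1.00 in Tdrd6-/- libraries, a log2 change of 0.61 (SE 0.137, adjusted p = 0.0401, edgeR). Without Tdrd6-/- replicate 2 the adjusted p was 0.139. The outermost junctions of Prpf3-201 (chr3:95830124-95855885, minus strand) are shown with the same use of capitals, as the ends between which the balance moved.
Prpf3-201, exons 1 and 2: gctgaagtttgtgagGTGTAGTTTTTTTGT
Prpf3-201, exons 15 and 16: gtactagtatgggagGGTACAGCCAAAGAC
The first had 30 and 43 counts in Tdrd6+/- against 16 and 25 in Tdrd6-/- libraries. The last had 54 and 61 counts in Tdrd6+/- against 73 and 81 in Tdrd6-/- libraries.

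The segments and junctions of Ddx23 and Cd2bp2 could not be placed on the annotation, so that their ends rest on the numbering alone. For Ddx23, whose gene level gave a log2 fold change of -0.02 (SE 0.133), the 8 junctions at the 5′ end had 669 and 691 counts in Tdrd6+/- against 956 and 1035 in Tdrd6-/- libraries. The 8 at the 3′ end had 853 and 823 counts in Tdrd6+/- against 846 and 960 in Tdrd6-/- libraries. The ratio fell from 1.28 and 1.19 to 0.885 and 0.928, a log2 change of -0.44 (SE 0.108, adjusted p = 0.0606, edgeR), and the call was lost without Tdrd6+/- replicate 1 (adjusted p = 0.136) and without Tdrd6-/- replicate 1 (0.337) or 2 (0.157). For Snrnp40 the ratio was 3.67 and 2.87 in Tdrd6+/- and 1.98 and 2.21 in Tdrd6-/- libraries (log2 change -0.64, SE 0.152, adjusted p = 0.0549, edgeR), and 0.272 was the adjusted p without Tdrd6+/- replicate 1 and 0.243 without Tdrd6-/- replicate 1. With DESeq2 none of the members was called, with 7 of them above its filter (adjusted p = 0.367 for Ddx23 and 0.23 for Snrnp40), and Prpf3 had an unadjusted p of 0.00739 there.

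**Figure D3:**
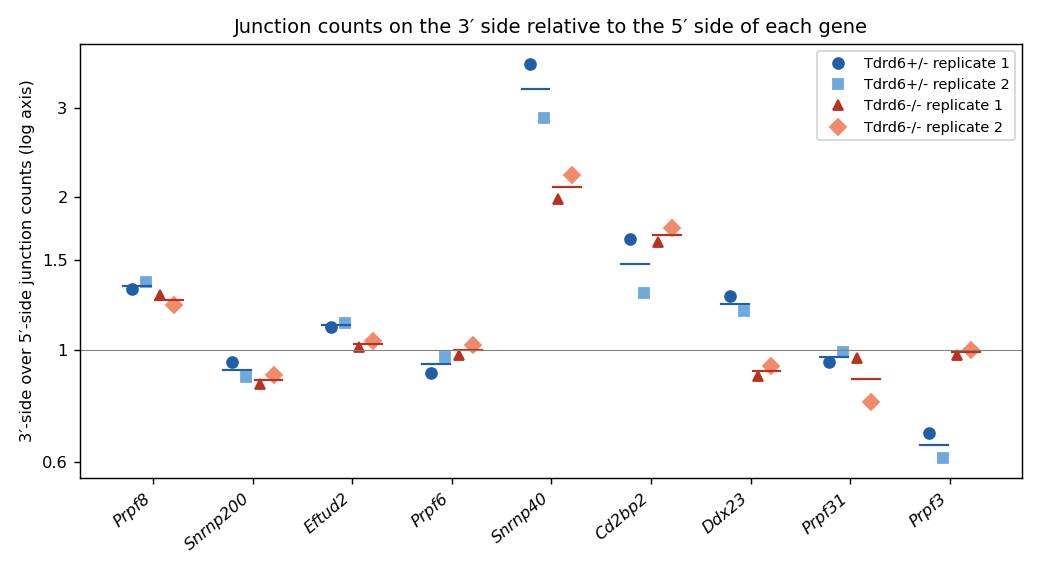
Junction counts at the 3′ end divided by those at the 5′ end (log axis) for 9 members, with points for the 4 libraries and short lines for the mean of each genotype. Snrnp40 (3.67 and 2.87 against 1.98 and 2.21) and Ddx23 lie lower, and Prpf3 lies higher, in the Tdrd6-/- libraries.

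No intron of a member was called as differentially used. Usage was read as an intron's count relative to the other introns of its gene, so that a change shared by all introns of a gene is not seen. Fitted were the 184 of 188 introns that reached a total of 10 counts, and 14 of these, in 5 genes, lay above the filter on the mean count (85.5 counts). None of the 14 was called by DESeq2, against 1.94% of 28903 introns tested (1.22% lower in Tdrd6-/- cells). With 6 unadjusted p-values under 0.05, 3.26% of the fitted introns of members fell there, against 4.32% of all introns fitted. By edgeR's test of the same model 2 of 49 were called, against 718 of all 41383 introns tested in that way. These 2 were introns 1 and 3 of Snrnp40 (adjusted p = 0.043 and 0.0812).

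The smallest p belonged to intron 1 of Snrnp40. This intron (chr4:130360350-130362626) had 66 and 58 counts in Tdrd6+/- against 78 and 63 in Tdrd6-/- libraries, and its share of the intron counts of the gene was 2.35% and 3.62% in Tdrd6+/- and 5.74% and 5.44% in Tdrd6-/- libraries (log2 change 0.99, SE 0.314, unadjusted p = 0.00163, DESeq2). Unscaled, its own counts overlapped between the genotypes, while those of introns 4 to 7 did not. The libraries differed in their intron totals, from 9603669 counts (Tdrd6-/- replicate 2) to 13937818 (Tdrd6+/- replicate 1). Overlap after scaling by these totals was not examined. Introns 2 and 3 of Snrnp40 (unadjusted p = 0.0132 and 0.0061, DESeq2) had 17, 28, 30 and 32 counts and 54, 68, 80 and 60 counts. Intron 38 of Prpf8 had 10 and 4 counts in Tdrd6+/- against 22 and 16 in Tdrd6-/- libraries (log2 change 1.70, SE 0.672, unadjusted p = 0.0104, DESeq2), and intron 27 had 46 and 42 against 24 and 19 counts (unadjusted p = 0.0433). Intron 3 of Prpf6 (chr2:181608289-181615976) had 74 and 82 counts in Tdrd6+/- against 53 and 45 in Tdrd6-/- libraries (log2 change -0.74, SE 0.303, unadjusted p = 0.015, DESeq2). In the other members the introns with the smallest p were intron 3 of Snrnp200, 22 of Eftud2, 6 of Cd2bp2, 2 of Txnl4a, 6 of Ddx23, 12 of Prpf31 and 15 of Prpf3, with unadjusted DESeq2 p-values of 0.105 to 0.234. None of the introns with an unadjusted p given here lay above the filter, whereas introns 4 to 7 of Snrnp40 did and were not called.

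Intron counts were spread unevenly within the genes. Intron 1 of Prpf6 held 37.5% of the intron counts of its gene, with 490, 453, 479 and 492 counts, and genes of the opposite strand overlap it (Samd10 and Zfp512b). Intron 4 of Snrnp40 held 33.1%, with 924, 567, 429 and 372 counts. In Prpf8 and Snrnp200, the genes with the most exons, counts were shared out over many introns, and those with the largest share were short. They were intron 15 of Prpf8 (117 bp, 7.35%, with 98, 143, 101 and 102 counts) and intron 32 of Snrnp200 (141 bp, 7.86%, with 105, 189, 196 and 160 counts). The largest shares in the other genes were 19.9% in intron 12 of Ddx23, 17.8% in intron 4 of Prpf31, 16.2% in intron 13 of Prpf3, 21.04% in intron 5 of Cd2bp2 and 66.4% in intron 2 of Txnl4a. In Eftud2 it was 10.1% in intron 17. Introns are numbered along the chromosome, so that in Ddx23, Prpf3, Cd2bp2 and Eftud2, on the minus strand, the highest number is the first intron.

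The intron-to-exonic ratio, which does see a change shared by all introns of a gene, gave no call in 9 members either (edgeR), against 2.47% of 15190 genes (1.72% lower in Tdrd6-/- cells). The number with an unadjusted p under 0.05 in edgeR was 2 of 9, against 11.8% of all genes tested. DESeq2 called 0 of the 6 above its filter. Introns of Snrnp40 stood out with 150 and 131 counts per 100 gene counts in Tdrd6+/- and 118 and 89.8 in Tdrd6-/- libraries. At the other end, Cd2bp2 had 6.72 and 7.96 in Tdrd6+/- and 8.16 and 7.26 in Tdrd6-/- libraries. These ratios are not scaled, and in 35.9% of all genes both Tdrd6-/- ratios lay below both Tdrd6+/- ratios. Scaled relative to all genes, Snrnp40 gave a log2 change of -0.17 (SE 0.159, adjusted p = 0.744, edgeR). Per base, introns were covered at 3.09% (Prpf6) to 19.3% (Snrnp40) of the density of exons in the 8 members whose introns could be measured.

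Ddx23 had 7.55 and 7.70 intron counts per 100 gene counts in Tdrd6+/- and 9.51 and 7.87 in Tdrd6-/- libraries, the smallest p of the members (log2 change 0.46 relative to all genes, SE 0.180, adjusted p = 0.244, edgeR). Prpf3 followed with 39.0 and 30.7 in Tdrd6+/- and 40.6 and 36.4 in Tdrd6-/- libraries (log2 change 0.42, SE 0.168, adjusted p = 0.246, edgeR). Both were called without Tdrd6-/- replicate 1 (adjusted p = 0.0922 and 0.0411), and the other alternatives gave no call. Intron and gene counts were scaled separately, and with 1 common scaling the median log2 change of all genes moved from 0.03 to -0.24, and the calls over all genes moved from 113 higher and 262 lower to 8 higher and 214 lower. On the separate scaling 8 of the 9 changes were positive, against 54.1% of all genes, but those of Prpf6, Snrnp200, Prpf31 and Eftud2 turned negative on the common scaling.

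**Figure D4:**
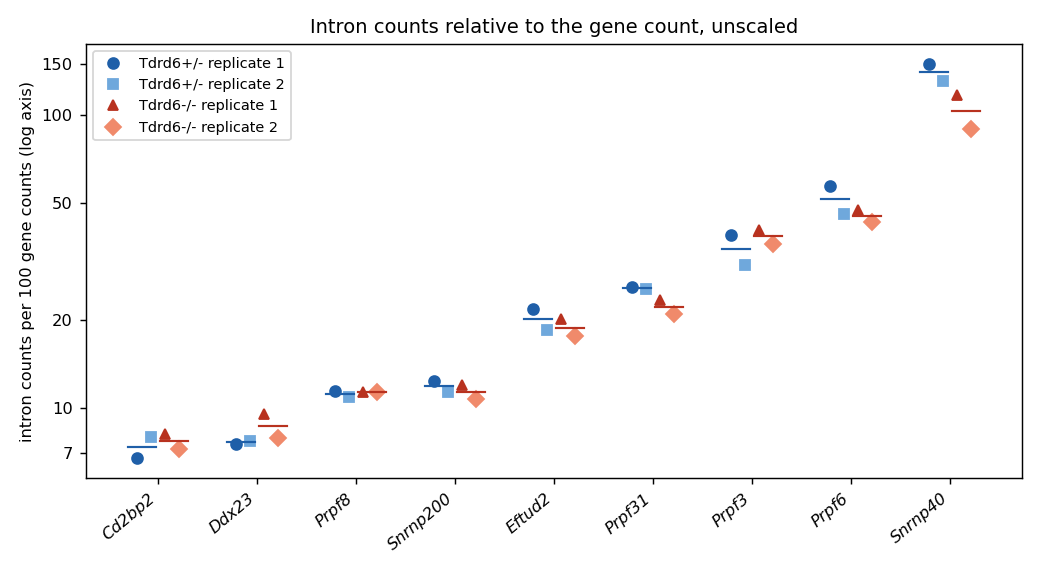
Intron counts per 100 gene counts (log axis, unscaled) of 9 members in the 4 libraries, with short lines for the mean of each genotype. Snrnp40 lies between 89.8 and 150, above all other members, and Cd2bp2 and Ddx23 lie lowest.

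Exon segments and junctions gave the single call of E009 in Snrnp40. Of 567 rows (340 segments, 224 annotated and 3 unannotated junctions), 532 were fitted and 440 lay above the filter, and the background of calls was 0.207% of 155398 features (0.0701% lower in Tdrd6-/- cells). With an unadjusted p under 0.05 there were 42 rows, or 7.89% of those fitted, against 2.93% of all features fitted. They were found in Prpf3 (9), Ddx23 (9), Snrnp40 (8), Eftud2 (7), Prpf8 (5), Snrnp200 (2), Prpf31 (1) and Txnl4a (1), and in neither Prpf6 nor Cd2bp2. Segments and junctions of 1 gene share fragments and are not independent.

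In Prpf8, the smallest p belonged to a segment at the 3′ end (E048, chr11:75509135-75509447), with 460 and 578 counts in Tdrd6+/- against 568 and 538 in Tdrd6-/- libraries. These counts changed less than the gene as a whole, so that its use was higher in Tdrd6-/- cells without passing the threshold (log2 change 0.37, SE 0.128, adjusted p = 0.513, DESeq2). In Eftud2 it was the junction of the first exon (J088, 47 and 51 counts in Tdrd6+/- against 81 and 81 in Tdrd6-/- libraries, log2 change 0.68, SE 0.279, adjusted p = 0.853, DESeq2). In Prpf3 it was segment E005 of the 3′ side (94 and 97 counts in Tdrd6+/- against 118 and 122 in Tdrd6-/- libraries, log2 change 0.60, SE 0.230, adjusted p = 0.738, DESeq2). The smallest p in Ddx23 was that of E004 (337 and 289 counts against 259 and 310, log2 change -0.40), and in Snrnp200 that of E038 (786 and 961 against 1134 and 1088, 0.24). In Prpf31 it was E024 (60 and 54 against 38 and 57, -0.71), in Prpf6 J048 (63 and 79 against 103 and 110, 0.40), in Cd2bp2 E002 (236 and 240 against 312 and 327, 0.18) and in Txnl4a E027 (7 and 5 against 2 and 1, -2.36), all with an adjusted p of at least 0.79 in DESeq2 or below the filter.

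Unannotated junctions were few. Snrnp40 had 2 of them and the joined row of Txnl4a had 1. The one with the most counts, N030 of Snrnp40, had 56 and 36 counts in Tdrd6+/- against 34 and 27 in Tdrd6-/- libraries (log2 change -0.26, SE 0.363, unadjusted p = 0.478, DESeq2), with Tdrd6+/- replicate 1 again highest. Of the 224 annotated junctions 12 had no count in any library.

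Annotated junctions that share a splice site can be compared by their shares of counts, shown for a pair of genes chosen after the counts had been seen. In Prpf3, junction J056 from an alternative first exon took 21.1% (95% Wilson interval 11.1 to 36.3) and 25.9% (16.3 to 38.4) of the counts at its acceptor in Tdrd6+/- libraries, and 20.0% (8.07 to 41.6) and 7.41% (2.06 to 23.4) in Tdrd6-/- libraries. The intervals, which cover counting error only, overlap. In Eftud2, junction J086 took 93.4% and 91.2% of the counts at its donor in Tdrd6+/- and 94.6% and 91.1% in Tdrd6-/- libraries.

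The partners of these proteins showed no change that passed the threshold. None of 28 genes in 3 lists was called in edgeR, and DESeq2 called none. An unadjusted edgeR p under 0.05 was found for 1 of the 28, against 14.0% of all genes tested. In the U4/U6 and tri-snRNP list (10 genes), which holds Prpf4 and Ppih of the U4/U6 particle and Sart1 and Usp39 of the tri-snRNP, the log2 fold changes ran from -0.37 (Sart3, the factor that rejoins U4 and U6) to 0.27 (Txnl4b), with a median of 0.14. These were named after their values had been seen. Sart3 was at 42.9 and 37.3 CPM in Tdrd6+/- and 31.9 and 30.2 CPM in Tdrd6-/- libraries, without overlap (adjusted p = 0.269, edgeR). In the list of U5 assembly and chaperone factors (9 genes, among them Aar2, which holds PRPF8 before SNRNP200 binds) the median was 0.13, and in the list of B complex and activation factors (9 genes) it was 0.09. Over the 3 lists 22 of 28 log2 fold changes were positive, where 48.3% of all genes tested had a negative one. The median of 0.12 stood against 0.01 over all genes and -0.07 over the members. The homologs outside the snRNP, Ascc3 of Snrnp200 and Eef2 and Efl1 of Eftud2, were not called either (log2 fold changes of -0.17, 0.07 and -0.05).

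**Figure D5:**
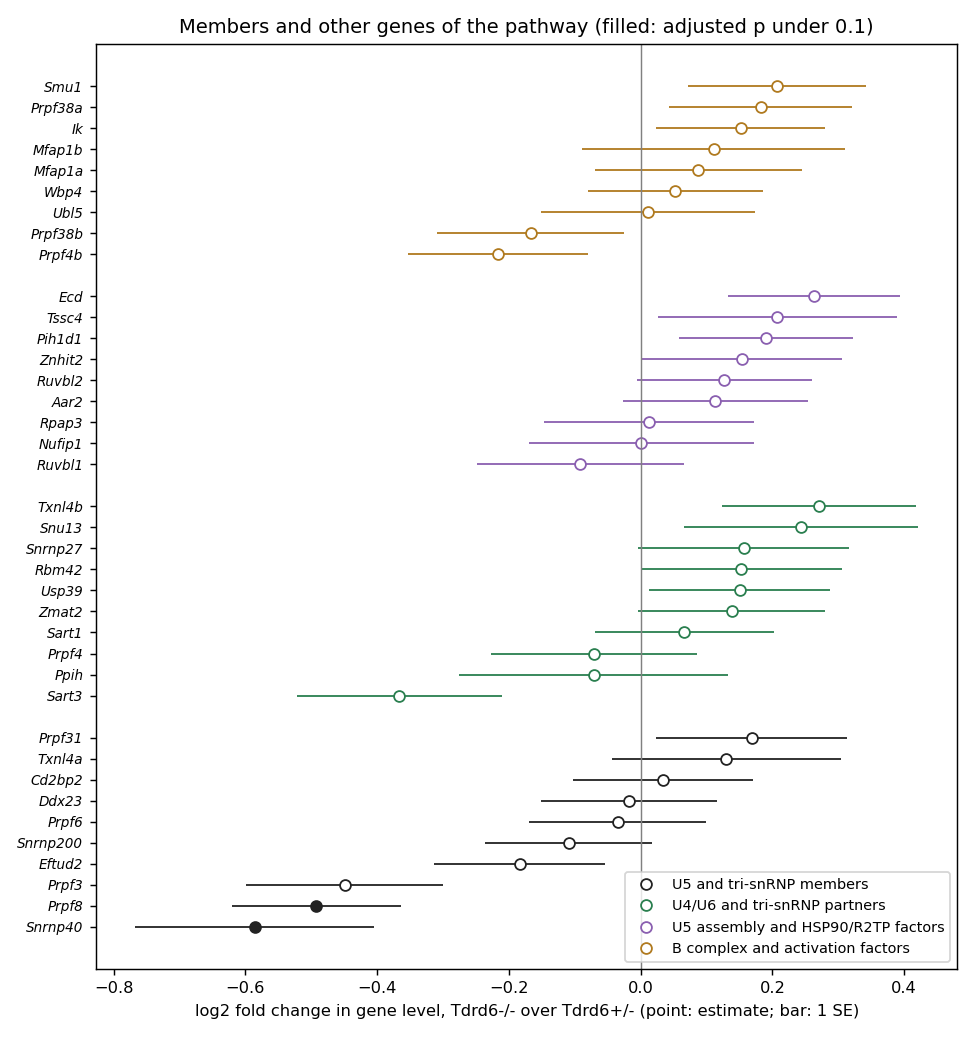
Log2 fold change in gene level, Tdrd6-/- over Tdrd6+/-, with 1 SE from edgeR, for the 10 members and 28 other genes of the pathway. Filled points passed the threshold (Prpf8 and Snrnp40), and open points did not. Prpf8, Snrnp40 and Prpf3 lie lowest, and all partners but Sart3 lie between -0.22 and 0.27.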

How the data were processed

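Total RNA of sorted diplotene cells (2 Tdrd6+/- and 2 Tdrd6-/- libraries, grouped by the labels) was depleted of rRNA and made into directional libraries. Per the labels, base calling used bcl2fastq 1.8.4 and the build was mm10 (GRCm38). The authors aligned with GSNAP and annotated with Ensembl release 75. They deposited raw counts per intron, and per gene, exon segment and junction. The counting program and its use of strand are not given in the sources used here. Of 759 joined gene rows with annotated strands, 755 join genes of the same strand.

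The quasi-likelihood test of edgeR 4.0.16, after TMM scaling and filterByExpr, was applied to gene counts, as well as to intron-to-exonic ratios and 3′-to-5′ junction ratios as interactions. Intron, exon and junction usage followed the DEXSeq and JunctionSeq models, fitted with DESeq2 1.42.0 (at least 10 counts in total, independent filtering) in R 4.3.3. The false discovery rate was 0.1 (Benjamini-Hochberg, over whole tables). Positions were set from GENCODE M21 by order where the numbers matched: 179 of the 188 introns, and the segments and junctions of 7 genes. Members and lists were chosen with earlier results of these data known. Named features were those past the threshold, the intron with the largest share and the features with the smallest p of each member. Alternatives were other tools, scalings, filters, thresholds, the replicate block and leaving out each library. Scripts were tested on simulated data. Simulated log2 changes of 1 were recovered in 86.0% for gene level, 53.5% for intron usage, 21.0% for exon usage and 48.0% for the intron-to-exonic ratio. Changes of that size can thus be missed. At a log2 change of 2 these shares were 100%, 100%, 96.0% and 100%. The changed features were drawn only from those with higher mean counts, at a fixed dispersion of 0.02. Of the 184 fitted introns of members only 14 lay above the filter on the mean count. The shares therefore do not apply to members' features of low count. Intervals of shares are 95% Wilson intervals. Joined rows of overlapping genes (940) were left out of exon and junction usage, except that of Txnl4a. Proteins, splice-site sequence beyond exons and the authors' own lists were not used here.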

Additional observations from a re-analysis of the deposited data

How the results depend on the processing

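The number of members called in gene expression (2) fell to 1 with DESeq2 size factors in edgeR and at a false discovery rate of 0.05, and to 0 without the filter on low counts. It was 2 with the DESeq2 Wald test, but these were Prpf8 and Prpf3 (adjusted p = 0.01 and 0.0942). Snrnp40 was not called there (adjusted p = 0.103). On leaving out a library the log2 fold change ran from -0.55 to -0.43 for Prpf8 and from -0.90 to -0.18 for Snrnp40. No log2 change of Prpf8 or Snrnp40 changed sign. The number of introns called (0) rose to 2 with the edgeR usage test. In exon and junction usage the 1 call was lost at a false discovery rate of 0.05 (0 called), and leaving out a library gave 0 to 4. The intron-to-exonic ratio gave 0 to 2 calls on leaving out a library and 0 otherwise. The 3 calls in the 3′-to-5′ junction ratio fell to 0 with the DESeq2 likelihood ratio test and were 1 to 3 without a library. The other genes of the pathway gave 0 to 2 calls without a library (Txnl4b and Znhit2, without Tdrd6+/- replicate 2). The summed level differed by -155 CPM without TMM. The cause of these changes was not tested.

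Signs turned in results that were not called. The gene level of Ddx23 was 0.0080 (log2) without the filter on low counts and -0.073 to 0.054 without a library. Without a library that of Txnl4a was -0.050 to 0.35 and that of Prpf6 -0.11 to 0.063. With common scaling the intron-to-exonic ratio was -0.18 for Prpf6, -0.062 for Snrnp200, -0.22 for Prpf31 and -0.096 for Eftud2, and without a library it was -0.047 to 0.27 for Prpf6 and -0.076 to 0.21 for Prpf31. Of 264 settings of single values, 223 kept direction and side of the threshold.

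Replicate numbers come from the labels alone, and deviations of libraries with the same number showed no positive correlation (r = -0.11 over 11968 genes, -0.004 over 74693 introns). With the replicate block 3 members were called in gene expression (Prpf3 being added), 1 intron (intron 1 of Snrnp40), 1 exon segment, 0 ratios and 3 junction ratios. With a block of crossed numbers, chosen after seeing the data, 1175 genes were called, 2 of them members. The block of labelled numbers called 1046 genes, and the main fit without a block called 794. Calls over all features moved by more than 1.5 times in some alternatives. Genes went from 794 to 75 without the filter and 257 without Tdrd6-/- replicate 2, introns from 561 to between 4 and 1266, segments and junctions from 322 to between 51 and 767, intron-to-exonic ratios from 375 to between 28 and 981, and junction ratios from 82 to between 20 and 224. Of 184 introns 14 were above the filter on the mean count, and of the 183 tested without Tdrd6+/- replicate 1 none was called by DESeq2.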
